A study of Mus musculus with 2 samples.

Results

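The genes described here are the subunits of the vacuolar ATPase and the cathepsins, read in cells taken from scaffolds that filled a skull defect in mice. They were chosen by name: every gene whose symbol starts with Atp6v, and every gene written Cts plus 1 further letter except Ctsk. That gave 40 of the 32285 genes in the deposited count matrices, made up of 13 genes of the V1 sector, 9 of the V0 sector, Atp6v1fnb (a gene that carries the prefix but is not counted with either sector) and 17 cathepsins. Of these, 5 had no count in any cell (Ctsj, Ctsm, Ctsq, Ctsr and Atp6v1e2), and 23 reached the level at which ratios between libraries were read in macrophages (8 V1, 6 V0 and 9 cathepsins).

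The vacuolar ATPase is a rotary proton pump. Its V1 sector lies in the cytosol and splits ATP, its V0 sector spans the membrane and carries protons, and several subunits are encoded by alternative genes used in different cell types. Cathepsins are proteases, and many of them work in the acid compartment which the pump maintains. Most are cysteine proteases, with Ctsd and Ctse as aspartic and Ctsa and Ctsg as serine proteases. Phagocytes use both to break down what they take up, and osteoclasts place the pump in the membrane that faces bone.

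The study had 2 groups, both of female Balb/c mice aged 6 weeks with a circular defect of 3.5 mm in the cranial bone. In each group the defect held a scaffold without added cells, named Gel100 in one group and Gel50_CS50 in the other, and cells were collected at week 1. The sources used here do not spell out either scaffold name. Cells of 5 mice were pooled into 1 library per group, so there are no replicates, and every difference below is between 2 libraries, with no test and no measure of the spread between mice.

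After filtering, 7570 cells of the Gel100 and 7206 cells of the Gel50_CS50 library were kept, with a median of 12716 and 16506.5 unique molecular identifiers (UMIs, the counted transcript molecules) per cell. Cells under 1000 UMIs made up 11.2% and 1.42%. The libraries shared 24 cell barcodes, which were kept in both. Cells were clustered without the 40 genes and clusters were named from markers, so "macrophages", "neutrophils" and the other names mean cells like that type. Macrophages and monocytes formed 1 class of 3752 and 3655 cells, spread over clusters in unequal numbers: the cluster rich in interferon-induced genes held 1163 and 145 of these cells, and the Arg1 Cxcl3 cluster 109 and 699. Levels are given as CPM, the summed count of a gene in a class per 1e+06 counts of that class in the same library. They were not divided by gene length, since the 3' kit counts transcript ends. A gene lay beyond 1.5-fold where the whole 95% interval of its log2 ratio (Gel50_CS50 over Gel100) did, and ratios were read for genes that averaged 20 CPM or more over the libraries. All intervals cover counting error only.

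Promoters of the genes were searched for the letters CACGTG, the core motif that the lysosomal regulators of the Mitf, Tfeb and Tfe3 family bind, and for the longer TCACGTGA, which contains it. Both read the same on either strand. RefSeq promoters on GRCm38.p6, from 250 bases before to 50 bases after the gene start, were given for 30 of the 40 genes. A gene was counted where any of its promoters held the motif. TCACGTGA was found for 5 of these 30 genes (16.7%), against 304 of all 27025 genes with a promoter (1.12%). The shorter CACGTG was found for 8 of the 30 (26.7%, adding Atp6v0b, Ctsf and Ctsl), against 8.09% of all genes with a promoter. The stretches around TCACGTGA are shown, 5′ to 3′ on the strand of the gene with the motif in capitals, because the longer motif stood in promoters of both families.
Ctsa, chr2:164833749-164833778, plus strand: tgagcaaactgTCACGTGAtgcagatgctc
Ctsd, chr7:142387901-142387944, minus strand: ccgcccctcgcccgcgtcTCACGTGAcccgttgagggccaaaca
Atp6v0d1, chr8:105566050-105566079, minus strand: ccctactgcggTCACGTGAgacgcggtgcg
Atp6v1a, chr16:44139366-44139409, minus strand: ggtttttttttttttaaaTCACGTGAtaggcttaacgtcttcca
Atp6v0e, chr17:26676387-26676416, plus strand: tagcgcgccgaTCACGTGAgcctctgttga
A match describes the letters only, and binding was not measured here. Each position holds for the RefSeq transcript start of that window, and some genes have further starts. The GENCODE models of Ctsa, Ctsd, Atp6v1a and Atp6v0e begin upstream of the starts used here, and the motif lies inside those models. From those RefSeq starts, the motif began 13 bases before for Ctsa, 99 before for Ctsd, 4 before for Atp6v0d1, 132 before for Atp6v1a and 2 after for Atp6v0e.

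Which cells carried the most pump and cathepsin transcript was read from the summed levels of each family. Macrophages and monocytes led every class of at least 100 cells per library for both families. Pump subunits summed to 3532 CPM in Gel100 and 3478 CPM in Gel50_CS50, and cathepsins to 16140 and 14954 CPM. Next for cathepsins came conventional dendritic cells, the antigen-presenting cells that prime T cells, at 6614 and 6788 CPM beside 2605 and 2590 CPM of pump subunits. Their cathepsin sum rested on 1 cluster, led by Dcstamp, Mgl2 and Cd209a, at 10119 and 9470 CPM. Only its marker score places that cluster in the class, and the other 2 dendritic clusters stood at 2770 and 2428 CPM and at 1966 and 1698 CPM. Plasmacytoid dendritic cells, the main makers of type I interferon, held 5390 and 4685 CPM of cathepsins and 2243 and 2363 CPM of pump subunits. Neutrophils stood at 2548 and 2166 CPM of pump subunits, close to the dendritic classes, but at 2659 and 2212 CPM of cathepsins. Stromal cells (1154 and 1131 CPM of pump, 2033 and 1971 CPM of cathepsins) and T and NK cells (1112 and 1057 CPM, 1462 and 1117 CPM) were lowest. The order of these classes was the same in both libraries for cathepsins, though without the Dcstamp cluster the conventional dendritic clusters lay below the plasmacytoid class. For the pump, neutrophils and plasmacytoid dendritic cells changed places.

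**Figure D1:**
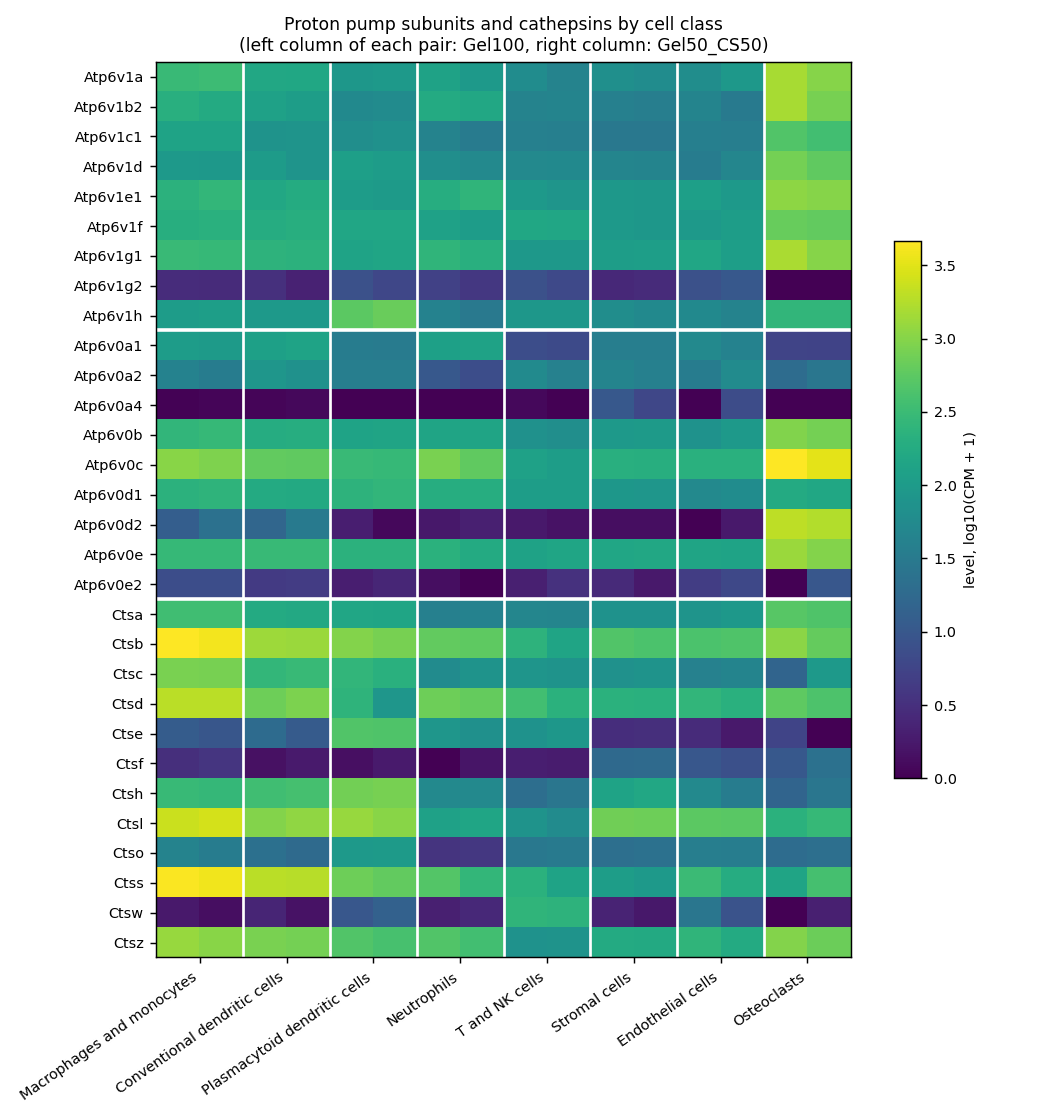
Level of each pump subunit and cathepsin that passed a low limit in any class drawn, as log10(CPM + 1) in colour. Each pair of columns is a cell class, with the Gel100 library on the left and the Gel50_CS50 library on the right. White lines part the V1 sector, the V0 sector and the cathepsins. Ctsb, Ctss, Ctsl and Ctsd are brightest in macrophages, Atp6v0d2 in osteoclasts, and Ctsw in T and NK cells.

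Between the scaffolds, the macrophage class showed little difference in either family. None of the 23 genes (0) lay beyond 1.5-fold, where 5.99% of the 6108 genes measured in the class did. The median log2 ratio was 0.002 over the 14 pump subunits (0.03 for V1 and -0.04 for V0) and -0.09 over the 9 cathepsins, beside -0.01 over all measured genes. Single ratios ran from -0.30 for Ctso, a little studied cysteine cathepsin, to 0.20 for Atp6v1e1, a subunit of the stalks that hold the pump still.

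In the V1 sector the highest levels belonged to Atp6v1a, the catalytic subunit, at 308 CPM in Gel100 and 320 CPM in Gel50_CS50. Atp6v1g1, a stalk subunit, stood at 299.7 and 288 CPM. Atp6v1e1 was at 229 and 263 CPM. Atp6v1b2, the noncatalytic partner of the A subunit, stood at 207 and 175 CPM, a log2 ratio of -0.24. Atp6v1f, part of the rotor, stood at 197 and 209.7 CPM. The 8 measured V1 genes thus lay within a narrow range of levels in both libraries, the lowest being Atp6v1d at 94.3 and 89.95 CPM.

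In the V0 sector Atp6v0c, the proteolipid that forms most of the proton-carrying ring, stood far above the rest at 1022 and 907 CPM, a log2 ratio of -0.17. The ring holds several copies of it. The small subunit Atp6v0e followed at 286 and 287 CPM, the second ring protein Atp6v0b at 257 and 288 CPM, and Atp6v0d1, the usual d subunit that joins ring and rotor, at 226 and 244 CPM. Atp6v0a1, a subunit that forms the proton path beside the ring, was at 106 and 99.3 CPM.

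Among cathepsins, Ctsb, a cysteine protease that also trims peptides from their ends, was the most abundant at 4616 and 3943 CPM (log2 ratio -0.23). Ctss, which processes the invariant chain of MHC class II, followed at 4396 and 3831 CPM (-0.20). Ctsl, a broad endopeptidase, stood at 2378 and 2701 CPM (0.18), the one abundant cathepsin with the higher level in Gel50_CS50. The aspartic protease Ctsd was at 1955 and 1959 CPM, equal to within 0.01 on the log2 scale, and Ctsz, a carboxypeptidase, at 1251 and 1033.5 CPM (-0.28). Each of these 5 stood within 1.5-fold between the libraries.

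**Figure D2:**
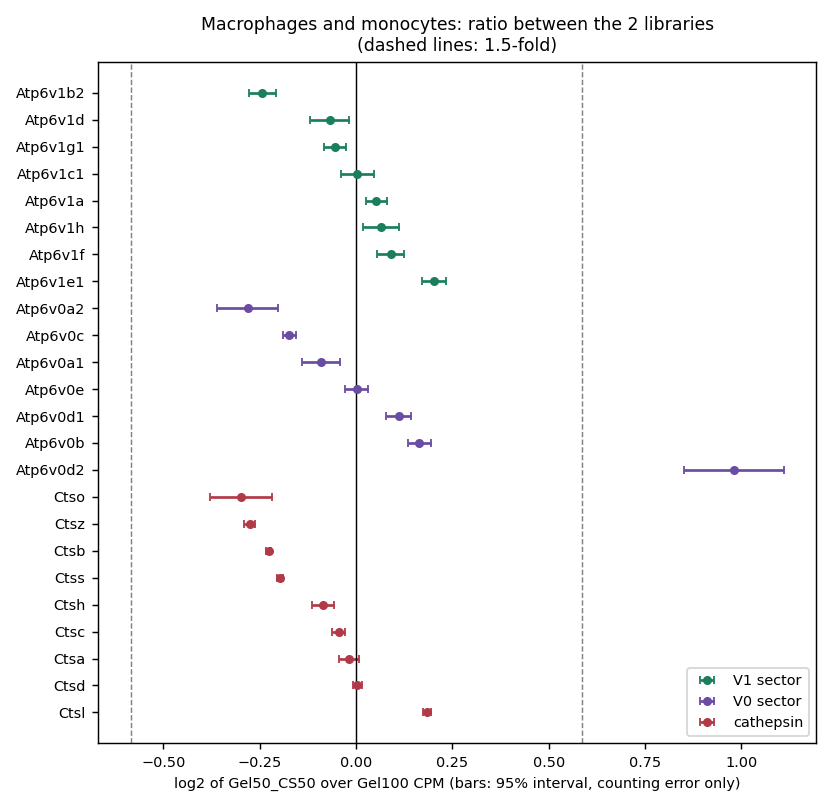
Log2 ratio of Gel50_CS50 over Gel100 CPM in the macrophage and monocyte class for each gene, with 95% intervals for counting error and dashed lines at 1.5-fold. All 23 measured genes sit between the lines, and Atp6v0d2, which missed the level of 20 CPM, sits to the right of them.

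The genes that work with the 2 families were read from lists. None of the measured genes lay beyond 1.5-fold (0) among 4 pump partners outside the Atp6v names, 7 assembly factors, 12 lysosomal membrane proteins, 25 other lysosomal hydrolases, 7 activators and sorting receptors, 13 regulators of lysosomal transcription and 6 osteoclast partners. Tcirg1, which encodes the a3 subunit of the pump under another name, stood at 141 and 123 CPM. Mitf stood at 782 and 659 CPM and its relative Tfec at 24.0 and 35.7 CPM (0.57, interval 0.48 to 0.67). The cathepsin inhibitors were the one list with genes beyond 1.5-fold, 2 higher and 1 lower in Gel50_CS50 of 5 measured. Over all measured genes of the class the share beyond 1.5-fold was 5.99%. Stfa3, a stefin, stood at 5.53 CPM in Gel100 and 164 CPM in Gel50_CS50 (4.89, interval 4.73 to 5.05). Stefin A genes are near-identical copies, and the counting of shared reads is not stated. Stfa3 also led the Arg1 Cxcl3 cluster, which held 109 and 699 cells, and the part of these cell numbers was not tested. Slpi, a secreted inhibitor of serine proteases such as cathepsin G, was at 94.2 and 199.5 CPM (1.08). Serpina3g, a serpin that inhibits cysteine cathepsins, was at 62.5 and 12.3 CPM (-2.35). Stfa3 and Serpina3g passed the level filter only through the library where each was higher, so nothing is read from their places in the count. The more abundant inhibitors differed little: Cst3 stood at 1822 and 1766 CPM, and Cstb at 939.8 and 800.3 CPM.

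Across macrophage states the summed cathepsins varied more than the summed pump subunits. The states were 9 clusters with at least 50 cells in each library, named by their leading genes. Summed cathepsins ran from 7968 and 6804 CPM in the monocyte-like cluster to 27112 and 26692 CPM in the Gpnmb Trem2 cluster, whose name genes mark lipid-laden and foreign-body macrophages. Pump subunits reached their highest sum in the same cluster, at 4669 and 4870 CPM, and their lowest at 2940 CPM in the MHC class II high cluster of Gel100 and 2854 CPM in the monocyte-like cluster of Gel50_CS50. Cathepsin counts per pump count therefore ran from 2.64 and 2.38 in the monocyte-like cluster to 5.81 and 5.48 in the Gpnmb Trem2 cluster. Clusters were drawn from other genes of the same cells, so these are descriptions of the clusters and not tests. The sequencing depth also differed, with a median UMI count of 15458.5 in the monocyte-like and 20426 in the Gpnmb Trem2 cluster over both libraries, and its part in the difference was not tested.

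Ctsd had the widest range of the measured cathepsins, from 511 and 522 CPM in the monocyte-like cluster to 6713 and 5485 CPM in the Gpnmb Trem2 cluster. That is a ratio of 13.2 in Gel100 and 10.5 in Gel50_CS50. Ctsl followed, from 482 and 608 CPM to 4582 and 5986 CPM in the same 2 clusters, ratios of 9.51 and 9.85. Ctsa, which protects lysosomal sialidase and galactosidase, ran from 210 and 225 CPM to 747 and 644 CPM between them.

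Ctsb was high in 3 clusters. It stood at 8067 and 6210 CPM in the Cd36 Ltc4s Ccl24 cluster, at 7299 and 6396 CPM in the Mrc1 Gas6 cluster of resident type, and at 7236 and 7008 CPM in the Gpnmb Trem2 cluster, against 1709 and 1233 CPM in the monocyte-like one. Ctss varied least among the 4 most abundant cathepsins, from 2529 and 2024 CPM in the monocyte-like cluster to 5197 and 5040 CPM in the Gpnmb Trem2 cluster. Ctsc, which activates granule serine proteases, had the opposite order: it was highest in the monocyte-like cluster, at 1225 and 1093 CPM, and lowest in the Gpnmb Trem2 cluster, at 459 and 496 CPM. Ctsh, an aminopeptidase, was low in the Cd36 Ltc4s Ccl24 cluster (169.8 and 155 CPM) and the Arg1 Cxcl3 cluster (169.8 and 212 CPM), and stood at 428 and 371 CPM in the Gpnmb Trem2 cluster. In both libraries, then, 1 cluster was highest for Ctsa, Ctsd, Ctsl, Ctss and Ctsz and lowest for Ctsc.

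Measured pump subunits varied within a narrower band. The ratio of the highest to the lowest state lay between 1.46 (Atp6v0a2) and 2.55 (Atp6v0a1) in Gel100 and between 1.496 (Atp6v0d1) and 3.37 (Atp6v0a1) in Gel50_CS50. Atp6v0c was highest in the Gpnmb Trem2 cluster at 1358 and 1391 CPM, as was Atp6v1a at 425 and 433 CPM, beside 197 and 192 CPM in the monocyte-like cluster. Atp6v0a1 stood at 168.8 and 156.6 CPM in the Cd36 Ltc4s Ccl24 cluster and at 66.3 and 47.5 CPM in the monocyte-like cluster.

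**Figure D3:**
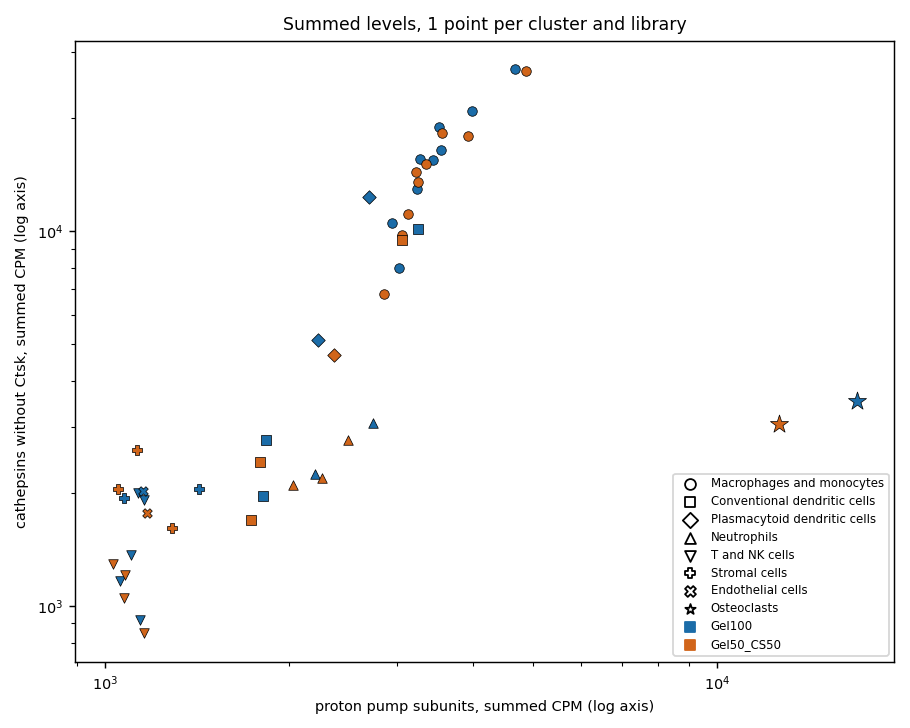
Summed CPM of the pump subunits against summed CPM of the cathepsins (Ctsk not counted), both on log axes, with 1 point per cluster and library. Shape gives the cell class and colour the library. Macrophage clusters rise steeply on the right of the main cloud, up to 27112 CPM of cathepsins, while the osteoclast-like cells stand apart with up to 16930 CPM of pump subunits and 3519 CPM of cathepsins.

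Within single states the scaffolds again differed in few of the genes. Of 25 measured genes in the Gpnmb Trem2 cluster, 2 lay beyond 1.5-fold, 1 higher and 1 lower in Gel50_CS50, where 1.76% of all measured genes lay beyond it in either direction. Atp6v0d2, the alternative d subunit, was the higher one and is described next. Ctse, an aspartic protease that is not confined to lysosomes, was the lower one at 31.3 and 12.8 CPM (log2 -1.29, interval -1.63 to -0.96). It passed the mean of 20 CPM only through the Gel100 library, so nothing is read from its place in that count. The smaller of the 2 interferon-rich clusters (292 and 64 cells) had Atp6v1b2 at 234 and 118 CPM (-0.99, interval -1.25 to -0.73), where 2.3% of measured genes lay beyond 1.5-fold. In the other 7 states none of the measured pump subunits and cathepsins lay beyond it (0), and those under 20 CPM were not read. The share of all measured genes beyond it was 1.66% in the larger interferon-rich cluster, 4.48% in the monocyte-like and 2.01% in the Cd36 Ltc4s Ccl24 cluster. It was 2.58% in the Cxcl13 Fcrl5, 4.31% in the Arg1 Cxcl3, 0.989% in the Mrc1 Gas6 and 0.764% in the MHC class II high cluster. These cluster-level genes, like the osteoclast comparison below, were picked out after their values were seen.

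Atp6v0d2 (ENSMUSG00000028238, chr4:19876841-19922605, minus strand, mm10) replaces Atp6v0d1 in the pump of some cells and takes part in the fusion of osteoclast precursors. In the macrophage class it had 692 UMIs in Gel100 and 1652 UMIs in Gel50_CS50, or 11.3 and 22.3 CPM, a log2 ratio of 0.98 (interval 0.85 to 1.11). Its mean was under the 20 CPM set for calls, so it is not among the 23 genes above, and without that limit it was the 1 gene of the families beyond 1.5-fold. Counts came from few cells: 193 and 271 cells of the class held any UMI of it, and the 5 cells with most held 22.1% and 18.7% of all its UMIs.

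Most of these UMIs lay in the Gpnmb Trem2 cluster, with 552 of 692 in Gel100 and 1342 of 1652 in Gel50_CS50. There Atp6v0d2 stood at 85.9 and 143 CPM (0.74, interval 0.59 to 0.88), and at 63.9 and 114 CPM without the 5 cells that held most. With each cell thinned to 3000 UMIs the log2 ratio was 0.88, and 9.19% of 283 cells and 14.4% of 388 cells kept a UMI of it, against 0.228% and 0.421% of T and NK cells, which should lack the gene. Without thinning, 78 of 349 and 110 of 392 cells of the cluster held a UMI. In the other 8 states it stood between 0.278 CPM and 12.0 CPM in either library.

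As a share of the d subunit UMIs (Atp6v0d1 plus Atp6v0d2), Atp6v0d2 made up 4.77% in Gel100 and 8.39% in Gel50_CS50 over all macrophages and monocytes. In the Gpnmb Trem2 cluster it made up 25.9% (24.0 to 27.8%) and 35.9% (34.3 to 37.4%), or 18.01% and 30.6% after thinning. The monocyte-like cluster was at 0.11% and 0.21%. Without the Gpnmb Trem2 cluster, the macrophage class was at 1.13% and 1.94%. The share of Atp6v0d2 in the class therefore rested on that cluster in both libraries.

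A cluster named conventional dendritic by its markers, led by Dcstamp, Mgl2 and Cd209a, was the next highest, with Atp6v0d2 at 12.8% and 19.8% of d subunit UMIs. Few of its cells carried the gene: 22 of 201 and 22 of 226, and the top 5 held 67.4% and 60.3% of its 141 and 290 UMIs. After thinning the share was 9.45% in both libraries. In the dendritic class as a whole Atp6v0d2 stood at 15.5 and 30.1 CPM (0.96), the 1 of 23 measured genes beyond 1.5-fold, where 3.76% of all measured genes were. It passed the level filter only through Gel50_CS50. That ratio fell to 0.02 after thinning and reversed under 3 other ways of forming the class, to -2.26 with the 40 genes used in clustering, -2.22 with finer clusters and -0.61 with called doublets kept.

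**Figure D4:**
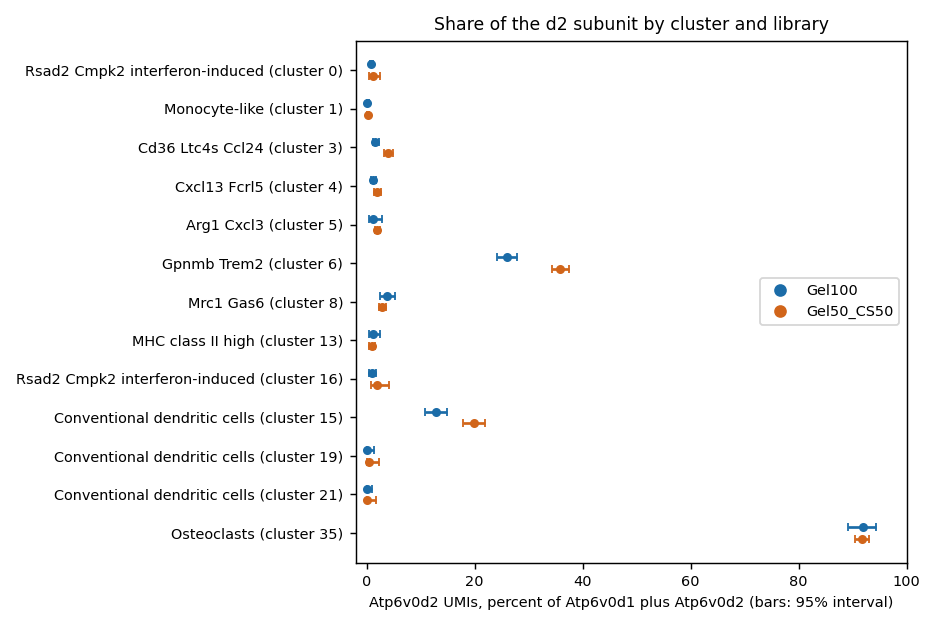
Atp6v0d2 as a percentage of Atp6v0d1 plus Atp6v0d2 UMIs in macrophage states, dendritic clusters and osteoclast-like cells of each library, with 95% intervals. The Gpnmb Trem2 cluster (25.9% and 35.9%) and the Dcstamp Cd209a dendritic cluster (cluster 15, 12.8% and 19.8%) stand above the other macrophage and dendritic clusters, and the osteoclast-like cells stand near 92%.

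The genes whose levels ran most like that of Atp6v0d2 over 9 macrophage states in 2 libraries (18 points, Pearson r of log levels) were Ctsa (0.94), Creg1 (0.93), Pld3 (0.93), Cd63 (0.93) and Atp6v1c1 (0.92), out of 6108 genes. For Ctsl they were Neu1 (0.94), Slc6a8, Lhfpl2, Cd84 and Slc48a1 (0.92 to 0.93). The points share libraries and depth, and a single cluster at the top of both genes weighs on every r.

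Osteoclasts are bone-resorbing cells that form by fusion of macrophage precursors and acidify bone through the pump. A cluster of 5 and 21 cells carried 6 of the 7 osteoclast markers in both libraries (Ctsk, Acp5, Ocstamp, Dcstamp, Nfatc1 and Car2), while Calcr, the calcitonin receptor, had no UMI in it. None of the markers is among the 40 genes. It held 214296 and 897565 UMIs in all. Its markers of macrophages and monocytes summed to 2954 and 3669 CPM, with 6 and 0 of 18 at 0, beside 18762 and 18872 CPM in the macrophage class. These 5 cells limit every Gel100 value that follows.

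Pump subunits summed to 16930 and 12622 CPM in the osteoclast-like cells. The cathepsins without Ctsk summed to 3519 and 3059 CPM, the reverse of the balance in macrophages. There were 0.208 and 0.242 cathepsin counts per pump count. Ctsk, the collagen-cutting cathepsin of osteoclasts left out by the rule and used as a marker here, alone stood at 12665 and 9051 CPM. In macrophages it stood at 53.2 and 35.1 CPM. The size of the reversal therefore rests on leaving out Ctsk, and with Ctsk added both sums would be close. Set against macrophages of the same library, 11 of 14 pump subunits other than Atp6v0d2 were higher beyond 1.5-fold in both libraries, where 14.2% (Gel100) and 18.6% (Gel50_CS50) of all genes were. Atp6v0d2 was higher too but is set apart, since in Gel100 it passed the level filter only through the osteoclast-like cells. Atp6v0a1 is among the 14 but passed the filter only through macrophages, so nothing is read from its place there. Of the 9 measured cathepsins, 0 were higher and 6 were lower in both, where 16% and 20.4% of all genes were lower. Ctsc is among these 6, but in Gel100 it passed the level filter only through macrophages. Nothing is read from its place in the Gel100 count. The median log2 difference was 2.02 and 1.60 over those 14 pump subunits and -2.12 and -2.63 over the cathepsins, beside -0.07 and 0.04 over all genes. The cells were grouped on other genes of the same counts, so this is a description of the cluster.

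Atp6v0d2 differed most, at 1983 and 1726 CPM against 11.3 and 22.3 CPM in macrophages (log2 7.45, interval 7.27 to 7.63, and 6.27, interval 6.17 to 6.37). It was also among the 10 genes that led the cluster. Of the 5 and 21 cells, 4 and 19 held a UMI of it, and it made up 92.0% (89.1 to 94.3%) and 91.8% (90.4 to 93.1%) of d subunit UMIs. Without the 5 highest of the 21 Gel50_CS50 cells its level was 1378 CPM. The usual partner Atp6v0d1 stood at 173 and 154 CPM, not wholly beyond 1.5-fold of macrophages (-0.39 and -0.67).

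In the V1 sector Atp6v1d, the rotor shaft, was furthest above macrophages at 793 and 586 CPM (3.07 and 2.70). Atp6v1b2 stood at 1512 and 807 CPM (2.87 and 2.21) and the catalytic Atp6v1a at 1521 and 1014 CPM (2.30 and 1.67). Atp6v1h, a regulatory subunit that can bridge the pump to other proteins, had the smallest excess of the 8 at 261 and 255 CPM (1.30 and 1.21). So all 8 measured V1 genes were higher in both libraries, by differing amounts.

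In the V0 sector Atp6v0c stood at 4629 and 3272 CPM (2.18 and 1.85) and Atp6v0e at 1321 and 980.4 CPM (2.20 and 1.77). Atp6v0a1 had 1 and 4 UMIs, or 4.67 and 4.46 CPM, and was the 1 pump subunit lower in both libraries (-4.50, interval -9.81 to -2.02, and -4.48, interval -6.35 to -3.12). It passed the level filter only through macrophages, so nothing is read from its direction. Tcirg1, whose a3 subunit osteoclasts are known to use, had 126 and 309 UMIs, or 588 and 344 CPM (2.06 and 1.49). Atp6ap2, an accessory protein of the pump, was at 663 and 447 CPM (2.01 and 1.39). The osteoclast-like cells thus held the d2 form above d1, the reverse of the order in macrophages. They also held the a3 form above a1, which was the order in macrophages too.

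With Ctsk left out by the rule, every cathepsin beyond 1.5-fold was lower in the osteoclast-like cells. Ctss stood at 135 and 382 CPM (-5.02 and -3.33) and Ctsl at 219 and 282 CPM (-3.44 and -3.26). Ctsc had 3 and 86 UMIs, or 14.0 and 95.8 CPM (-5.92, interval -8.19 to -4.37, and -3.10, interval -3.42 to -2.79). Ctsb was at 1064 and 637 CPM (-2.12 and -2.63) and Ctsd at 565 and 442 CPM (-1.79 and -2.15). Ctsz (961 and 696 CPM), Ctsa (513 and 452 CPM) and Ctso (18.7 and 21.2 CPM) were not beyond it. Lgmn, the legumain that cuts cathepsins to their mature forms, stood at 74.7 and 135 CPM beside 1402 and 1113 CPM in macrophages, while 7 and 5 of the 24 hydrolases other than Lgmn and the marker Acp5 were higher and 2 and 5 lower, to be read against the shares of all genes given above.

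**Figure D5:**
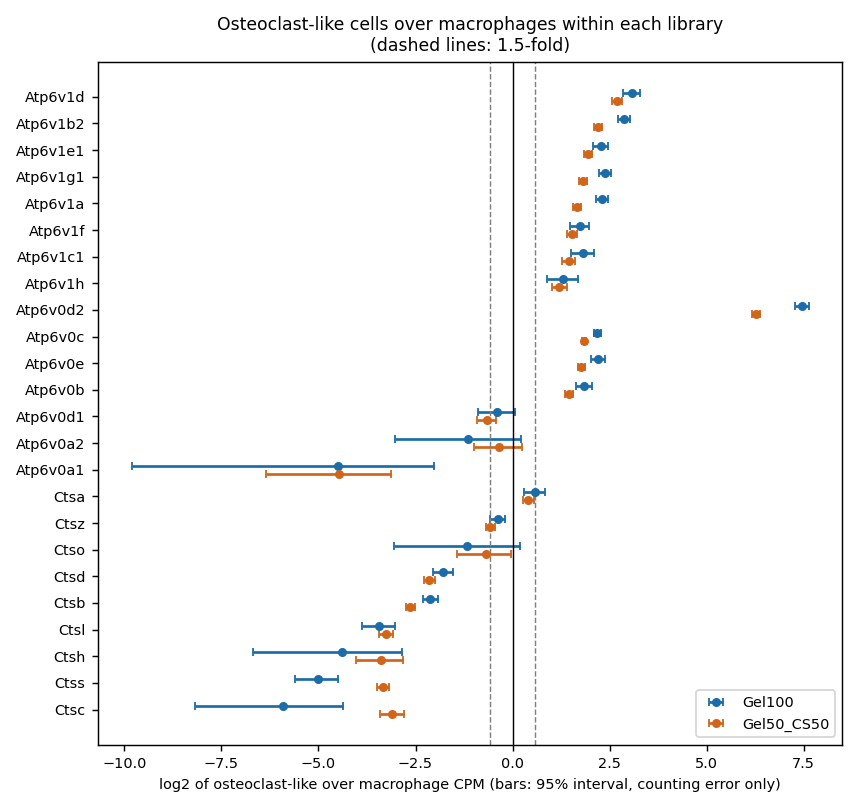
Log2 ratio of CPM in osteoclast-like cells (5 in Gel100, 21 in Gel50_CS50) over macrophages and monocytes of the same library for each measured gene, with 95% intervals for counting error and dashed lines at 1.5-fold. The 8 V1 subunits, Atp6v0d2, Atp6v0c, Atp6v0e and Atp6v0b lie to the right, and Ctss, Ctsc, Ctsh, Ctsl, Ctsb, Ctsd and Atp6v0a1 to the left.

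Some of the genes belonged to other classes. Plasmacytoid dendritic cells had the highest level of Atp6v1h, at 558 and 676 CPM, against 29.7 to 111 CPM in the other classes of at least 100 cells. They were also highest for Ctse, at 467 and 455 CPM, followed by neutrophils (84.4 and 67.6 CPM) and T and NK cells (72.6 and 86.0 CPM), with 10.7 and 8.69 CPM in macrophages and 2.06 and 2.10 CPM in stromal cells. Ctsh stood at 775.5 and 817.8 CPM in them and at 342 and 379.7 CPM in conventional dendritic cells. Ctso was at 94.4 and 97.8 CPM in them and at 41.9 and 34.0 CPM in macrophages. Among the classes of at least 100 cells, plasmacytoid dendritic cells were thus highest for Atp6v1h, Ctse, Ctsh and Ctso in both libraries. They were also highest for Atp6v0d1 (234 and 256 CPM) and Atp6v1d (114 and 106 CPM), though closer to the median class.

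Ctsw, a cathepsin of cytotoxic lymphocytes, marked T and NK cells at 248 and 233 CPM, against 9.01 and 12.7 CPM in plasmacytoid dendritic cells and 0.753 and 0.379 CPM in macrophages. With cells thinned to 3000 UMIs, 45.1% and 39.4% of T and NK cells held a UMI of Ctsw, and 0.205% and 0.167% of macrophages, which should lack it. The median depths were 8458 and 9893 UMIs per cell in the first and 16042 and 18790 in the second. Within the class, and before thinning, 90.0% and 89.8% of cells over that depth held it in the NK cluster led by Gzma and Xcl1, and 4.35% and 5.88% in the Foxp3 Ctla4 cluster of T cells.

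Ctsf, a cysteine cathepsin, was highest in stromal cells at 16.8 and 17.2 CPM, against 2.16 and 2.68 CPM in macrophages. Atp6v0a4, the a4 subunit known from kidney and inner ear, was seen almost only in stromal cells among the large classes, at 9.06 and 4.96 CPM. In the stromal cluster led by Col11a1 and Itgbl1 it stood at 35.3 and 13.2 CPM (-1.41, interval -1.80 to -1.02), where 4.14% of measured genes lay beyond 1.5-fold, though it passed the level filter only through Gel100. That difference came from few cells: 16 of 66 and 50 of 214 held a UMI, the top 5 held 71.9% and 31.6% of the UMIs, and without them the levels were 10.99 and 9.22 CPM. Ctsg, a granule serine protease, reached 1068 and 1033 CPM in the mast cell or basophil class, but 47 of its 49 UMIs there in Gel100 and 90 of 127 in Gel50_CS50 lay in 1 cell each. Over all kept cells it had 102 and 300 UMIs. It was also among the leading genes of an unnamed cluster of 22 and 24 cells, with Elane, Prtn3 and Mpo. Atp6v1c2 had 31 UMIs in stromal cells of Gel100, of which 30 were in 1 cell. Atp6v1g3 did not pass 2.55 CPM in any class of at least 100 cells, and Atp6v0e2 stood highest in macrophages at 6.34 and 6.29 CPM.

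Where subunits have alternative genes, the share of each form followed the class, with the same leading form in both libraries. Of a subunit UMIs (Atp6v0a1, Atp6v0a2, Atp6v0a4 and Tcirg1 together), Atp6v0a1 made up 73.2% and 74.2% in neutrophils, 36.7% and 38.8% in macrophages and 7.60% and 8.27% in T and NK cells. Atp6v0a2, a form known from the Golgi, made up 64.9% and 58.4% in T and NK cells and 5.59% and 3.67% in neutrophils. Tcirg1 held 49.0% and 47.9% in macrophages and 21.3% and 22.1% in neutrophils. The B subunit came from Atp6v1b2 in at least 99.56% of UMIs in these classes, and Atp6v1g2, known from neurons, reached its highest share of G subunit UMIs among the large classes in T and NK cells, at 7.27% and 5.72%.

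In the other classes, differences between the scaffolds were read gene by gene, with the share of UMIs held by the top cells. In T and NK cells 3 of 24 measured genes lay beyond 1.5-fold, all lower in Gel50_CS50, where 1.68% of all measured genes lay beyond it in either direction. Ctss stood at 220 and 134 CPM (-0.72), Ctsd at 363 and 216 CPM (-0.75) and Ctsb at 233 and 138 CPM (-0.75). The top 5 of 1079 Gel100 cells held 20.9%, 19.9% and 31.4% of these UMIs, and without the top 5 of each library the levels were 178 and 118, 299 and 207, and 163 and 128 CPM. After thinning the log2 ratios were -0.44, -0.47 and -0.33, and with equal cell weights -1.02, -0.55 and -0.94. All 3 stayed lower in Gel50_CS50 under these alternatives. Markers of macrophages and monocytes summed to 2409 and 1361 CPM in the class, with 0 of 18 at 0, and their part in the difference was not tested.

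In the Foxp3 Ctla4 cluster (73 and 68 cells) the same 3 cathepsins were lower, where 2.95% of measured genes lay beyond 1.5-fold. Ctss stood at 476 and 199 CPM (-1.26), Ctsd at 414 and 112 CPM (-1.89) and Ctsb at 522 and 212 CPM (-1.30). In no other T and NK cluster of at least 50 cells per library did these 3 lie beyond it. Summed cathepsins were 2003 and 1050 CPM in the Foxp3 Ctla4 cluster and 1165 and 1300 CPM in the cluster led by Themis and Lef1. They were 1372 and 1210 CPM in the NK cluster led by Gzma and Xcl1, and 920 and 847 CPM in the one led by Cd163l1 and Trdc. A second NK cluster held 190 and 30 cells, at a median of 1744 UMIs in Gel100, and its part was not tested. The cluster led by Themis and Lef1 had Ctsh at 11.5 and 42.1 CPM (1.87), where 1.38% of measured genes lay beyond 1.5-fold. Ctsh passed the level filter there only through Gel50_CS50. A dendritic cluster led by Xcr1 had Ctsl at 154 and 66.6 CPM (-1.21) and Ctsb at 283 and 163 CPM (-0.80). There, 4.31% of measured genes lay beyond 1.5-fold.

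In neutrophils 1 of 22 measured genes lay beyond 1.5-fold, where 9.58% of all measured genes did. It was Ctss, at 478 and 262 CPM (-0.87). Neutrophil clusters differed in their numbers between libraries, and with equal cluster shares the ratio was -0.35. Markers of macrophages and monocytes summed to 3058 and 2840 CPM in the class, with 0 of 18 at 0. Inside the 2 clusters with at least 50 cells in each library none of the measured pump subunits and cathepsins lay beyond 1.5-fold (0), where 2.09% and 1.79% of measured genes did.

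Plasmacytoid dendritic cells had 1 of 24 beyond 1.5-fold, where 1.42% of measured genes were. It was Ctsd, at 239 and 83.6 CPM (-1.52). Of its 1803 UMIs in Gel100, 1034 lay in 2 cells, and without the top 2 of each library the levels were 104 and 81.3 CPM. The class also held a low-UMI cluster of 85 and 6 cells, with a median of 1086 UMIs in Gel100. Without that cluster the log2 ratio of Ctsd was -0.14. Macrophage and monocyte markers summed to 5843 and 4602 CPM in the class as a whole, with 0 and 1 of 18 at 0. Their part was not tested. Stromal cells had 0 of 23 beyond it, where 2.78% of measured genes were, with a median of -0.03 over the 23.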

How the data were processed

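Each library was deposited as a matrix of raw UMI counts (whole numbers, one per gene and barcode). Per the file headers Cell Ranger 6.0.2 wrote it, and the submitters' processing notes give mm10. Of 32285 gene identifiers, 32235 were found in GENCODE vM21, which gave gene coordinates. The Gel100 matrix held 7845 barcodes and 108847835 UMIs, the Gel50_CS50 matrix 7515 and 150311308. How strand was used in counting is not stated in these sources.

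Barcodes were kept from 200 genes and 500 UMIs upward and under 20% mitochondrial counts (65 and 117 removed), and Scrublet (expected rate 0.06) removed 210 and 192 doublets. Clustering used scanpy 1.11.5 and leidenalg 0.10.2 (3000 variable genes without the 40 members, 30 components, 15 neighbours, resolution 1), with both libraries together. A cluster was named where its marker score was at least 1.5, led the next class by 0.5, rested on 3 markers in 10% of cells, and had a median of at least 1000 UMIs. A mixed cluster of 155 cells was split once more. These limits, the split, the state names and the osteoclast comparison were adopted after the data were seen. Unnamed clusters (804 and 153 cells) entered no class. Tables, sums and intervals used pandas 2.3.3, numpy 2.4.6 and scipy 1.17.1 under Python 3.11.15, components used scikit-learn 1.9.0, and plots used matplotlib 3.10.9.

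Log2 ratios have exact conditional binomial 95% intervals and shares have Clopper-Pearson ones. The scripts were tested on simulated data. No p-value was computed, since each group is 1 library and cells are not replicates.

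The members, gene lists and comparisons were chosen with earlier results of these data known. Genes were named by role: in macrophages those beyond 1.5-fold and the 5 highest per role; in other classes of at least 100 cells per library those beyond 1.5-fold, at most 5; genes at least 4-fold above the median class in their highest class; alternative subunits; list genes beyond 1.5-fold, at most 4 per list; and the 5 genes most like Atp6v0d2 and Ctsl. Alternatives thinned cells to 3000 UMIs or changed cell weights, cluster mix, doublets, resolution, gate and level filter.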

Additional observations from a re-analysis of the deposited data

How the results depend on the processing

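No paired analysis was possible because each group is 1 library, so there is no replicate to pair or leave out. The count of 0 genes beyond 1.5-fold in macrophages became 1 (Atp6v0d2) with no filter on the mean level and was 0 under the other alternatives. The median log2 ratio in macrophages, 0.002 for the pump and -0.09 for cathepsins, was 0.044 and -0.021 at resolution 2, and 0.070 and -0.030 with a per-cell marker gate. The cathepsin median was -0.046 with equal cell weights and -0.16 with equal cluster shares. The stromal median of -0.03 was -0.34 with equal cell weights.

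The Atp6v0d2 share of d subunit UMIs in macrophages, 4.77% and 8.39%, was 9.04% in Gel50_CS50 at resolution 2, 5.56% and 7.22% with the gate, and 3.23% and 5.73% after thinning. In Gel50_CS50 it was 5.80% with equal cell weights and 7.09% with equal cluster shares. Chosen after seeing the data, leaving out the Gpnmb Trem2 cluster gave 1.13% and 1.94%, and adding the Dcstamp Cd209a cluster 5.34% and 9.18%. The share was higher in Gel50_CS50 in each of these.

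For named genes, 50 alternatives chosen after seeing the data gave 17 values within the counting interval, 30 outside it and 3 with the sign reversed, all for Atp6v0d2 in conventional dendritic cells (-2.26, -2.22 and -0.61, given above). Log2 ratios ran from -1.02 to -0.44 for Ctss, -0.76 to -0.38 for Ctsd and -0.94 to -0.20 for Ctsb in T and NK cells, from -0.91 to -0.29 for Ctss in neutrophils, from -2.58 to -0.05 for Ctsd in plasmacytoid dendritic cells and from 0.52 to 1.14 for Atp6v0d2 in macrophages. In osteoclast-like cells 8 to 12 pump subunits, Atp6v0d2 counted, were higher and 4 to 7 cathepsins lower in Gel100, and 10 to 12 and 6 to 7 in Gel50_CS50. The limit given above for Ctsc in Gel100 holds here too. The planned run without macrophage clusters led by markers of other classes gave no value, since 0 of 10 clusters had any. Depth limits genes under 20 CPM, the 5 osteoclast-like cells of Gel100 and every class led by a few cells.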
